A study of Homo sapiens with 4 samples.

Results

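The replication-dependent histone genes encode the H1, H2A, H2B, H3 and H4 proteins that package newly made DNA. They were taken as all gene symbols of the expression table beginning with HIST1H, HIST2H, HIST3H or HIST4H, which gave 71 genes of the 27800 symbols in the table. The set holds 6 genes for H1, 17 for H2A, 20 for H2B, 14 for H3 and 14 for H4. By symbol, 56 belong to the HIST1 cluster, 11 to HIST2, 3 to HIST3 and 1 to HIST4. RefSeq (GRCh38.p14) records all 71, with 3 as pseudogenes (HIST1H2APS1, HIST2H2BA and HIST2H2BC). The HIST1 genes lie on chromosome 6, HIST2 and HIST3 on chromosome 1, and HIST4H4 on chromosome 12.

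The RNA was of MOLM-13 cells, a monocytic line of human acute myeloid leukaemia with a KMT2A-MLLT3 fusion, transduced with lentivirus for CRISPR-Cas9. One group of 2 libraries received a vector labelled EV and the other group of 2 received sgKAT6A, a guide against KAT6A, which encodes a histone acetyltransferase also called MOZ. All 4 libraries came from the same line and carried the lentiviral vector, and the labels do not say whether replicates were separate cultures or transductions, or whether cells were pooled or cloned. The question put to the data was how the histone genes differ between sgKAT6A and EV cells, and p-values here measure only the spread between these libraries.

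Replication-dependent histone mRNAs are made mainly in S phase, when the cell needs a new set of nucleosomes. They are the best known animal mRNAs without a poly(A) tail: the end of the message is a conserved stem-loop, bound by SLBP, and is cut by a complex that contains the U7 small nuclear RNA. NPAT, switched on by cyclin E and CDK2, drives their transcription, and the messages are degraded when DNA synthesis stops. Some of the genes are also known to give ordinary polyadenylated mRNAs, above all in cells that have left the cycle.

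The stem-loops are shown because their place in the transcripts tells which members have a transcript annotated past the normal histone end. The 16 bases of the stem-loop are in capitals, with 5 bases on each side in lower case, read in the sense direction from GENCODE 29 transcripts on GRCh38.
HIST1H2AC: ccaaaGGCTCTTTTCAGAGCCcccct
HIST1H2BC: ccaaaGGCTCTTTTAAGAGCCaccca
HIST1H2AG: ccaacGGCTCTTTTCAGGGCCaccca
HIST1H3E: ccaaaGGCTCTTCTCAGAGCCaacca
HIST1H4E: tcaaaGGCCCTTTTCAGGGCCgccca
HIST2H4B: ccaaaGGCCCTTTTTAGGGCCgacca
The histone stem-loop motif was searched on the sense strand, and an annotated transcript held it in 30 of the 71 members. An annotated transcript can stop short of the stem-loop, so a member without one here may still carry it. For HIST1H2BK the annotation runs only from 27146418 to 27146798, with 378 coding bases. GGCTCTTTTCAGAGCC was the most frequent form, in 5 H2A, 8 H2B and 2 H3 genes. The H4 genes with a stem-loop all had a different stem, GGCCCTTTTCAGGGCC in 5 genes and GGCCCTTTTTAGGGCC in 2. In 22 members a transcript is annotated that runs at least 100 bases past the stem-loop, for example 1114 bases past it in HIST1H2AC and 1022 bases past it in HIST1H4E.

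The promoters of 1 gene each from H1, H2A, H3 and H4 are shown because the classes differ in the letters they share. Each run holds 150 bases upstream of the RefSeq start site in GRCh38.p14, in the sense direction, and capitals mark the motifs searched.
HIST1H1C, chr6:26056471-26056620, minus strand: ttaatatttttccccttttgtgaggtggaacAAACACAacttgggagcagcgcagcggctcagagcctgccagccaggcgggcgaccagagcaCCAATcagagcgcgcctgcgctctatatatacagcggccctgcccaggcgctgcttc
HIST1H2AC, chr6:26123995-26124144, plus strand: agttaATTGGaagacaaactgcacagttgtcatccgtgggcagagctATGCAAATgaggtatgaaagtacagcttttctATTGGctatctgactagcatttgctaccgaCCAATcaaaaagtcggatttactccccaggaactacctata
HIST1H3B, chr6:26032100-26032249, minus strand: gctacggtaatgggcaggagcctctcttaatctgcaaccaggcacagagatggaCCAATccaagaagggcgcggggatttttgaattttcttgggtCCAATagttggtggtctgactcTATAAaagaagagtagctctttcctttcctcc
HIST1H4K, chr6:27831561-27831710, minus strand: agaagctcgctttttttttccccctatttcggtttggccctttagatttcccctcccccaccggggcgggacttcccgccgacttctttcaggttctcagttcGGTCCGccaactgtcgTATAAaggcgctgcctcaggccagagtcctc
The HIST1H2AC run ends 28 bases before the start, within the interval it shares with the divergent gene HIST1H2BC.

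The motifs were searched on both strands of the RefSeq promoter windows, which run from 250 bases before to 50 bases after the start and were present for 63 members. TATAA was found in 93.7% of the members' windows and in 20.4% of all 35116 promoters. CCAAT was found in every H1, H2A, H2B and H3 window, in 25% of the H4 windows and in 34.6% of all promoters. The octamer ATTTGCAT, a site for OCT1, was in 73.3% of H2A and 77.8% of H2B windows against 1.77% of all promoters. AAACACA, the H1 box, was in 6 of 6 H1 windows against 5.64% of all promoters. GGTCCG, from the core element of H4 promoters, was in 91.7% of the H4 windows against 11.3% of all. These matches describe the letters only, and the letters of no motif are contained in another on either strand.

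Expression was given in TPM, which gives transcripts after correction for length and sums to 1000000 in each library. TPM holds no read depth, so no counting interval was computed. KAT6A itself had 16.2 and 16.7 TPM in EV, with 12.2 and 10.8 TPM in sgKAT6A. The groups did not overlap, with a log2 difference of -0.48 ± 0.13 (SE) that did not pass (adjusted p = 0.784 by limma). All 9 markers of the line and its myeloid type (CD33, FLT3, LYZ, MPO, SPI1, CEBPA, HOXA9, MEIS1 and PTPRC) were at 1 TPM or more in every library. Of markers of other cells, MS4A1 and CD2 were listed at 0 throughout, the fibroblast genes summed to less than 1 TPM, NKG7 reached 208 TPM and HBA1 201 TPM. The 5 T and NK cell markers, of which 3 reached 1 TPM, summed to 101 and 168 TPM in EV and were also highest in sgKAT6A replicate 2 (129 and 229 TPM in sgKAT6A). Most of that sum was NKG7, at 93.1 and 151 TPM in EV, with 122 and 208 TPM in sgKAT6A. The 4 erythroid markers were highest in EV replicate 2, at 107 and 396 TPM in EV, with 379 and 178 TPM in sgKAT6A. The part of these markers in the results below was not tested.

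As shares of the library, the histone genes were a small fraction of the RNA measured. Their summed TPM was 483 and 583 in the EV libraries and 523 and 911 in the sgKAT6A libraries. In sgKAT6A replicate 1 the sum thus lay between the EV values, and only sgKAT6A replicate 2 lay above them. The ratio of group means was 1.35, with an exact two-sided permutation p = 0.667, where 2 libraries against 2 cannot give less than 0.33. Without sgKAT6A replicate 2 the log2 ratio moved from 0.43 to -0.03. The 5 highest members of a library held between 43.1% and 47.1% of its histone TPM. In bulk RNA, a different share of cells in S phase and a different amount of histone RNA per cell cannot be told apart.

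By class, H2A was the only sum whose groups did not overlap, at 152 and 177 TPM in EV against 184 and 329 TPM in sgKAT6A. Its ratio was 1.56 (exact permutation p = 0.33, the smallest 2 against 2 can give), and without sgKAT6A replicate 2 its log2 ratio moved from 0.64 to 0.16. The H4 sum was 95 and 161 TPM in EV against 106 and 244 TPM in sgKAT6A. H2B differed least between libraries, at 179 and 166 TPM against 176 and 221 TPM. The H3 genes summed to 31.7 and 39.7 TPM in EV and to 34.5 and 68.7 TPM in sgKAT6A. The linker histone H1 genes summed to 24.6 and 40.2 TPM in EV and to 22.4 and 47.8 TPM in sgKAT6A. In every class the highest library was sgKAT6A replicate 2. The exact permutation p was 1.0 for H1 and 0.667 for H2B, H3 and H4. For H3 and H4, leaving that library out turned the log2 ratio from 0.53 to -0.05 and from 0.45 to -0.27.

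**Figure D1:**
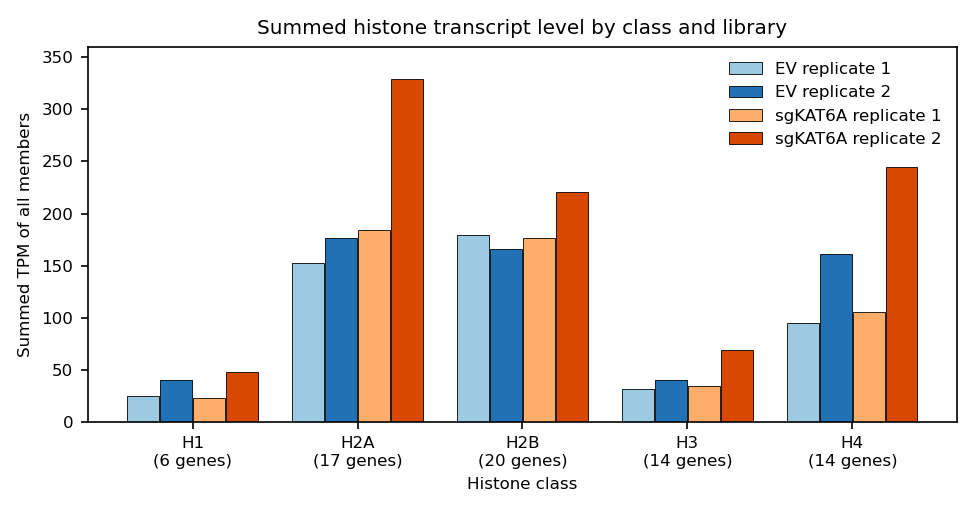
Summed TPM of all members of each histone class (vertical axis) in the 4 libraries (bars, blue for EV and orange for sgKAT6A). The bar of sgKAT6A replicate 2 is the tallest in each of the 5 classes, while sgKAT6A replicate 1 lies above both EV bars in H2A only.

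Differences for single genes were fitted on log2(TPM + 1) over the 12603 symbols whose mean over the 4 libraries reached 1 TPM. This filter kept 52 of the 71 members, 3 of H1, 14 of H2A, 15 of H2B, 10 of H3 and 10 of H4. Of the other 19, 11 were listed at 0 in every library and 8 had a mean above 0 but under 1 TPM. The filter uses the mean of all libraries, so a gene high in a single group could enter by that group. This touched HIST1H4L, whose mean in EV was under 1 TPM, and HIST2H2AB, whose mean in sgKAT6A was under 1 TPM. Of the 52 members tested, 37 had a mean under 10 TPM and 7 a mean of at least 20 TPM.

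None of the 52 members passed the threshold (limma, adjusted p from 0.784 upwards), where 0% of all genes tested passed. At an unadjusted p under 0.05 there were 5 members, or 9.62%, against 3.64% of all genes (459). With a pseudocount of 5 these were 2 members, or 3.85%, against 3.55% of all genes. Of the 5, 4 had higher values in sgKAT6A, against 1.67% of all genes (210), and 1 had lower values. Both sgKAT6A libraries lay above both EV libraries for 16 members, or 30.8%, against 14.4% of all genes. Both lay below for 2 members, HIST2H2AB and HIST1H4I, or 3.85%, against 23.2% of all genes. HIST1H4L and HIST2H2AB, which passed the filter through the group where they are high, are among these counts, and without them 3 members had such a p, 15 were higher and 1 was lower. The median log2 difference was 0.26 over the members, HIST1H4L and HIST2H2AB included, and -0.02 over all genes tested. With a library fewer, groups overlap less easily. Without sgKAT6A replicate 1, 36 members (69.2%) were higher, against 36.7% of all genes. Without EV replicate 2, 27 (51.9%) were higher, against 39.2%. Without sgKAT6A replicate 2, 17 (32.7%) were lower, against 33.1%.

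Many of the higher values lay in 1 library. The highest of the 4 values was in sgKAT6A replicate 2 for 35 of 52 members, or 67.3%, against 31.4% of all genes. The members' median difference was 0.06 without sgKAT6A replicate 2 and 0.55 without sgKAT6A replicate 1. Between the sgKAT6A libraries the median gap of the members was 0.68 on the log2 scale (replicate 2 over replicate 1), and between the EV libraries it was 0.17. By class the median difference was 0.26 in H1, 0.22 in H2A, 0.19 in H2B, 0.43 in H3 and 0.76 in H4. The H4 median includes HIST1H4L and the H2A median HIST2H2AB, which passed the filter through the group where they are high. The class medians became -0.22, -0.03, 0.05, 0.09 and 0.19 without sgKAT6A replicate 2.

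**Figure D2:**
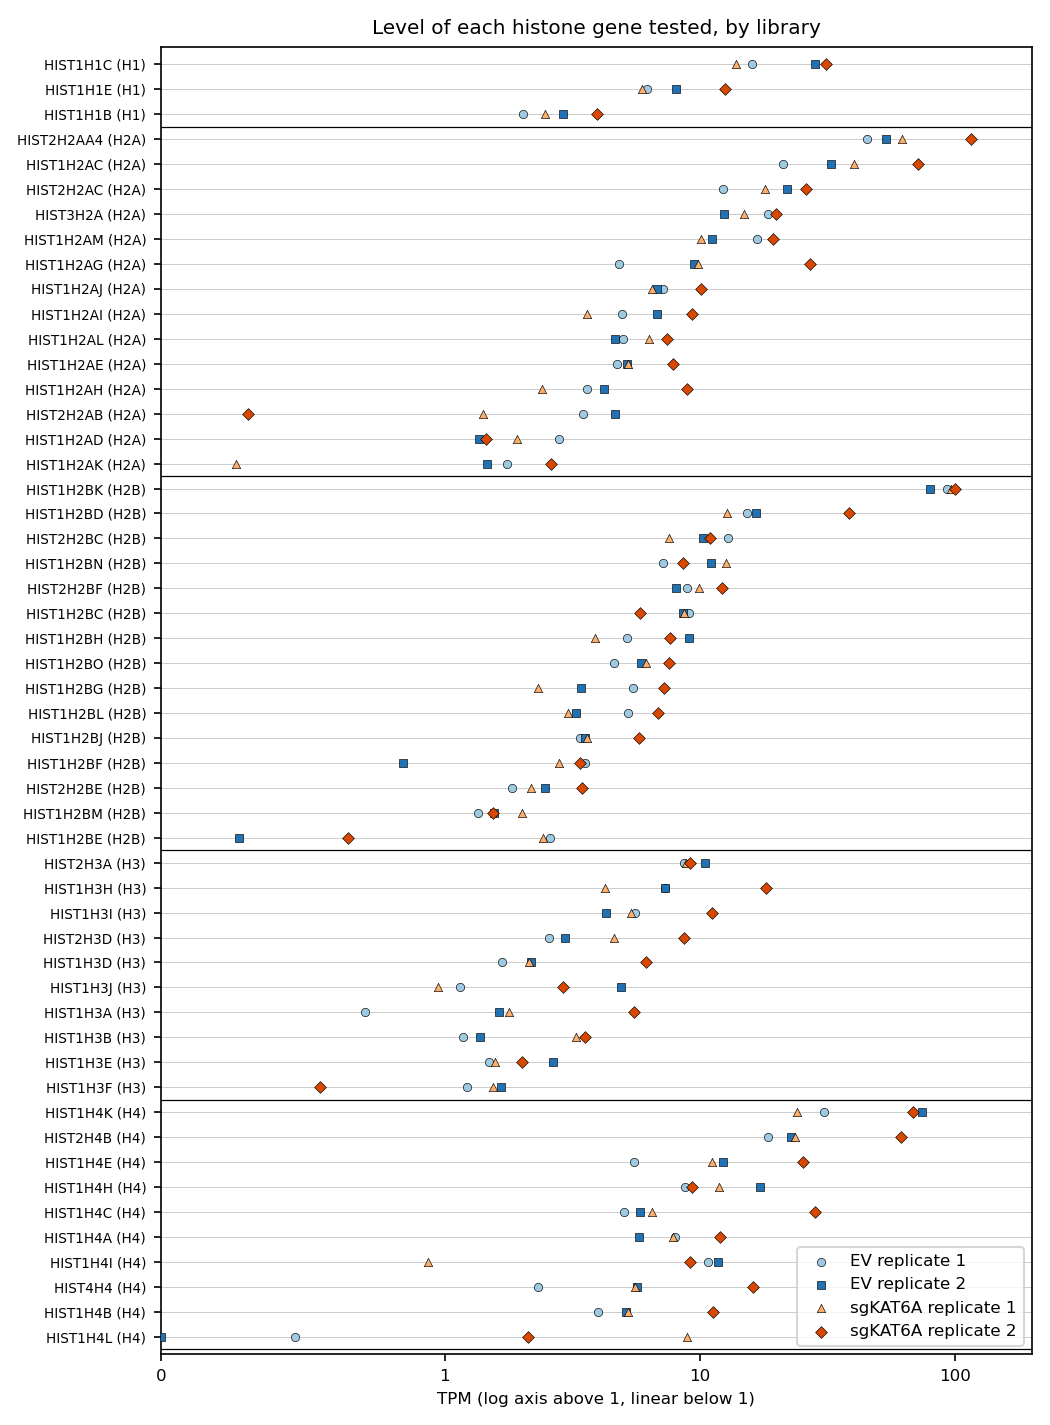
Level of each of the 52 members tested (TPM, horizontal log axis above 1 and linear below) in the 4 libraries, grouped by class and ordered by mean level. The diamond of sgKAT6A replicate 2 is the rightmost point in 35 rows.

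Of the other RNAs tested that are known to lack a poly(A) tail, 18 of 23 also stood highest in the same library, against 31.4% of all genes. RN7SK, which holds the elongation factor P-TEFb inactive, had 565 and 941 TPM in EV, with 1217 and 4596 TPM in sgKAT6A. RMRP, the RNA of the RNase MRP enzyme, had 74.8 and 266 TPM in EV, with 185 and 1344 TPM in sgKAT6A. The spliceosomal RNU2-1 was at 159 and 764 TPM against 754 and 7982 TPM. These 3 were picked after the values were seen, and they were not the highest in level. RN7SL1 had 7195 and 4673 TPM in EV, with 4608 and 17557 TPM in sgKAT6A. RN7SL2 was at 6722 and 4173 TPM against 4142 and 14326 TPM. In both, sgKAT6A replicate 1 lay below the EV libraries. Small nuclear RNAs together took 0.103% and 0.402% of the EV libraries and 0.325% and 2.31% of the sgKAT6A libraries.

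Of the 25 RNAs in this list, 24 were in the table and 23 were tested. Of those, 21 had higher and 2 lower means in sgKAT6A, and the median log2 difference was 1.60 (0.68 without sgKAT6A replicate 2). Without overlap, 10 were higher and 0 lower, where 14.4% and 23.2% of all genes tested were. The 4 with the smallest p were MALAT1, a nuclear long noncoding RNA (38.7 and 51.5 against 72.0 and 64.3 TPM), SCARNA2, SCARNA10 and RNU4ATAC. RNA18SN5, an 18S ribosomal RNA, stood apart in sgKAT6A replicate 2 by a low value, with 10401 and 13751 TPM in EV but 12031 and 340 TPM in sgKAT6A. Whether libraries were made from polyadenylated or total RNA is not given in the sources used here. The part of a different content of RNAs without a tail in the histone values was not tested. When the rows of this list and all ribosomal and small nuclear RNAs were removed and the rest rescaled, no member was called and the members' median was 0.29. That step changes the scale of a library, not which RNAs without a tail it captured.

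**Figure D3:**
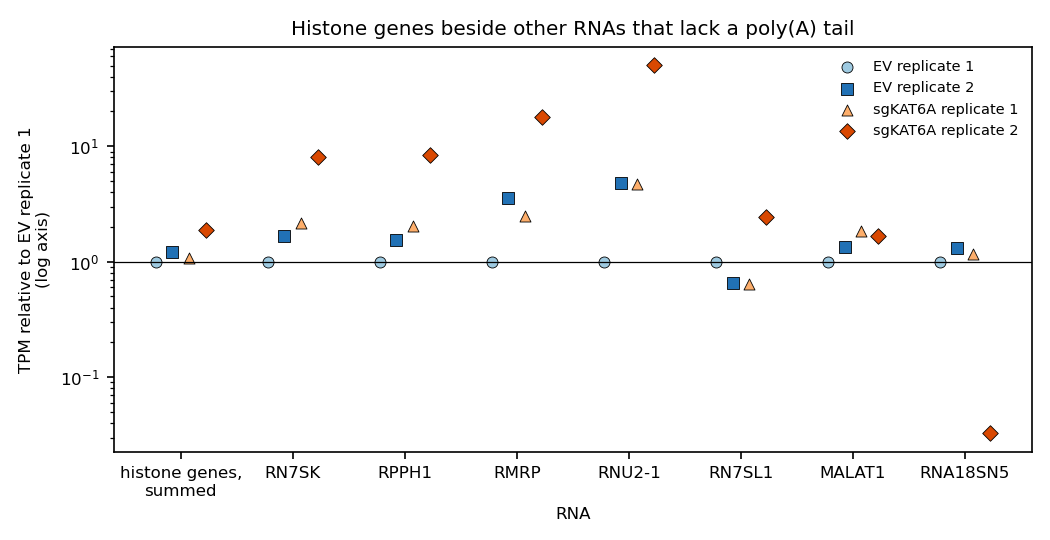
TPM of the summed histone genes and of 7 other RNAs that lack a poly(A) tail, each divided by its value in EV replicate 1 (log axis). sgKAT6A replicate 2 is highest for the histone sum and for RN7SK, RPPH1, RMRP, RNU2-1 and RN7SL1, and lowest for RNA18SN5.

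The 6 members also known as polyadenylated mRNAs had a median log2 difference of 0.23, against 0.27 for the other 46 members tested. Without sgKAT6A replicate 2 the median of the 6 was -0.002. HIST1H2AC had 21.2 and 32.7 TPM in EV, with 40.1 and 71.6 TPM in sgKAT6A, without overlap of the groups. HIST1H2BK, the most abundant member by mean, varied least of the 6, at 92.6 and 79.9 TPM against 96.4 and 99.6 TPM. HIST1H2BD had 15.3 and 16.6 TPM in EV, with 12.7 and 38.4 TPM in sgKAT6A. HIST1H1C, HIST1H2BC and HIST2H2BE, the others of the 6, had groups that overlapped. The 20 tested members with an annotated transcript at least 100 bases past the stem-loop had a median of 0.19, and the 32 without had 0.30. Of the 6, HIST1H1C, HIST1H2BD and HIST1H2BK fell among the 32, so this split follows the annotation and can miss longer messages.

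Among the H1 genes, which encode linker histones that bind the DNA between nucleosomes, 3 were expressed. HIST1H1C had 15.9 and 28.3 TPM in EV, with 13.8 and 31.1 TPM in sgKAT6A, and HIST1H1E had 6.22 and 8.03 TPM against 5.91 and 12.5 TPM. HIST1H1B was lower, at 2.02 and 2.90 TPM against 2.48 and 3.95 TPM. For HIST1H1C and HIST1H1E the replicates numbered 2 were the higher of each group, so the spread within groups exceeded the difference between them. HIST1H1A, HIST1H1D and the testis gene HIST1H1T stayed under 1 TPM in every library.

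Of the 14 H2A genes tested, 5 were higher and 1 lower without overlap, where 14.4% and 23.2% of all genes tested were. The 1 lower was HIST2H2AB, which passed the filter through EV alone. The highest in level was HIST2H2AA4. HIST2H2AA4 had 45.2 and 53.8 TPM in EV, with 62.2 and 115 TPM in sgKAT6A, a log2 difference of 0.77 ± 0.34 (SE, n = 2 libraries per group). Its coding sequence is identical to that of HIST2H2AA3, which is not listed among the members. Reads within the coding sequence thus cannot be assigned to 1 of these genes, and the parts outside it were not compared. HIST1H2AC, shown above, had a log2 difference of 1.00 ± 0.38. HIST2H2AC, next in level, was at 12.3 and 21.9 TPM against 18.1 and 26.1 TPM, with groups that overlapped.

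HIST1H2AL had 5.02 and 4.65 TPM in EV, with 6.34 and 7.44 TPM in sgKAT6A, a difference of 0.43 ± 0.15 on the log2 scale. Its unadjusted p was 0.049 by limma and its adjusted p was 0.784. With a pseudocount of 5 the difference was 0.27 and the unadjusted p 0.054. HIST2H2AB went the other way, with 3.48 and 4.65 TPM in EV but 1.42 and 0.307 TPM in sgKAT6A. It passed the filter through EV alone, so its log2 difference of -1.5 (-2.39 with a pseudocount of 0.1, -0.63 with 5) is given as a description. HIST2H2AB was 1 of 3 H2A members with a lower mean in log2 TPM, against 11 with a higher one.

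The H2B genes gave the smallest class median. Of the 15 tested, 4 were higher without overlap, none of them with an unadjusted p under 0.05, and 0 were lower. Among all genes tested, 14.4% were higher and 23.2% lower without overlap. After HIST1H2BK and HIST1H2BD the highest was HIST2H2BC, recorded as a pseudogene, with 12.9 and 10.3 TPM in EV, and 7.56 and 11 TPM in sgKAT6A. HIST1H2BC had 9.07 and 8.63 TPM in EV, with 8.68 and 5.83 TPM in sgKAT6A. HIST2H2BE was at 1.83 and 2.47 TPM against 2.18 and 3.46 TPM. HIST1H2BE, just inside the filter, had 2.60 and 0.277 TPM in EV, with 2.43 and 0.659 TPM in sgKAT6A, so its replicates differed more than its groups.

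Among the H3 genes, HIST1H3B had the smallest p of all members. HIST1H3B had 1.18 and 1.38 TPM in EV, with 3.27 and 3.55 TPM in sgKAT6A. Both sgKAT6A libraries stood at a similar height. The log2 difference was 0.95 ± 0.20 (95% interval from 0.40 to 1.5), with an unadjusted p of 0.0089 and an adjusted p of 0.784 by limma. It was 1.35 with a pseudocount of 0.1 and 0.42 with 5. HIST2H3D had 2.55 and 2.97 TPM in EV, with 4.60 and 8.70 TPM in sgKAT6A, a difference of 0.97 ± 0.32 (unadjusted p = 0.039, adjusted p = 0.784 by limma). With a pseudocount of 5 it was 0.56, with an unadjusted p just over 0.05. Its coding sequence is 98.8% identical to that of HIST2H3PS2, so the split of reads is uncertain.

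The H3 genes of highest level gave no such separation. HIST2H3A had 8.69 and 10.5 TPM in EV, with 8.82 and 9.15 TPM in sgKAT6A. It shares its coding sequence with HIST2H3C, which is not listed among the members. HIST1H3H had 7.31 and 7.34 TPM in EV, with 4.25 and 18.2 TPM in sgKAT6A, with the EV values between the sgKAT6A values. HIST1H3I was at 5.55 and 4.28 TPM against 5.40 and 11.2 TPM. HIST1H3F, just inside the filter, was at 1.22 and 1.66 TPM against 1.55 and 0.562 TPM.

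The H4 genes had the widest median gap between the sgKAT6A libraries, 1.23 on the log2 scale against 0.27 for H2B. HIST1H4K, the highest by mean, had 30.7 and 73.9 TPM in EV, with 24.1 and 68.1 TPM in sgKAT6A, so both replicates numbered 2 were far above both numbered 1. HIST1H4J, whose coding sequence is identical, was listed at 0 in every library, so the split between these genes is uncertain. HIST2H4B had 18.5 and 22.7 TPM in EV, with 23.7 and 61.5 TPM in sgKAT6A. It shares its coding sequence with HIST2H4A, which is not listed among the members. HIST1H4E was at 5.53 and 12.4 TPM against 11.1 and 25.4 TPM.

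HIST1H4L was very low in EV, at 0.472 and 0 TPM, and had 8.87 and 2.12 TPM in sgKAT6A. It passed the filter through sgKAT6A alone, so its log2 difference of 2.19 is given as a description. It depends on the pseudocount, at 4.22 with 0.1 and 0.93 with 5 in place of 1, as one library was at 0. HIST1H4I had 10.8 and 11.8 TPM in EV, with 0.940 and 9.11 TPM in sgKAT6A, so a single library held its low value. HIST1H4I lies on the opposite strand inside the RefSeq span of HIST1H2BK, and it is not stated whether strand was used, so their reads may not be told apart. In all, 5 pairs of members have RefSeq spans that overlap, 3 of them on opposite strands, including HIST2H4B with HIST2H2AA4 and with HIST2H3A.

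**Figure D4:**
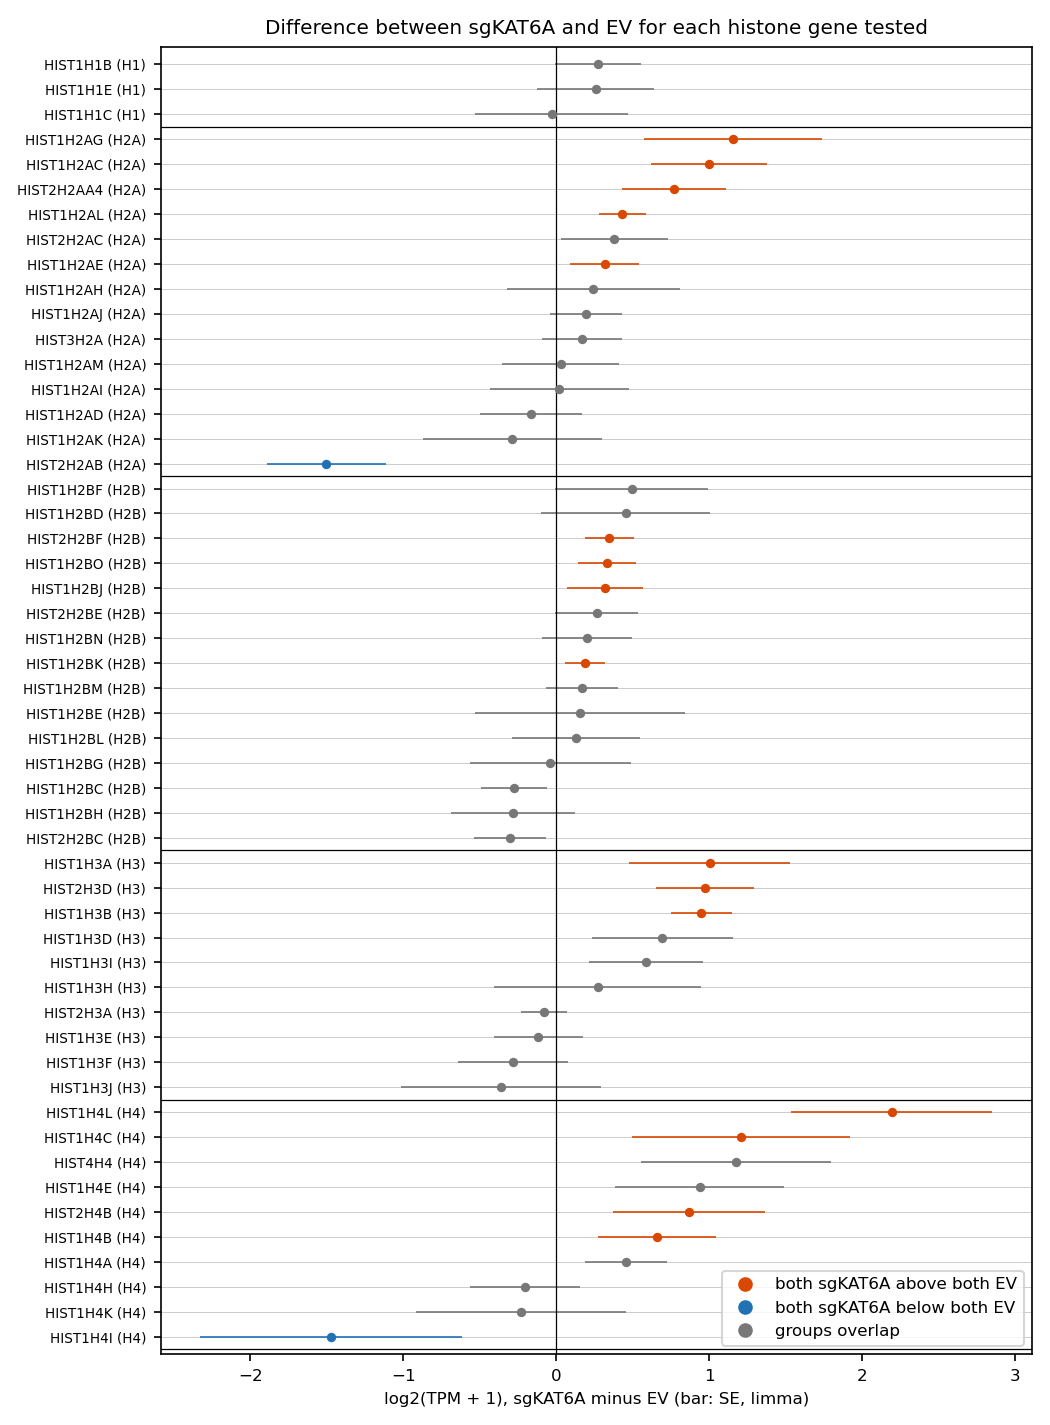
Difference in log2(TPM + 1), sgKAT6A minus EV, with its SE by limma, for each of the 52 members tested, by class. Orange marks the 16 members whose sgKAT6A libraries both lay above the EV libraries, blue the 2 members (HIST2H2AB and HIST1H4I) whose libraries both lay below.

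Of the 16 members higher without overlap, 8 fall outside the naming rule and are given here after their values were seen. In H2A these were HIST1H2AG (4.83 and 9.47 TPM in EV, 9.83 and 27.0 TPM in sgKAT6A) and HIST1H2AE (4.73 and 5.18 TPM, then 5.23 and 7.83 TPM). In H2B they were HIST1H2BJ (3.4 and 3.54 TPM, then 3.61 and 5.77 TPM), HIST1H2BO (4.61 and 5.89 TPM, then 6.17 and 7.55 TPM) and HIST2H2BF (8.88 and 8.05 TPM, then 9.96 and 12.2 TPM). In H3 there was HIST1H3A (0.721 and 1.63 TPM, then 1.78 and 5.54 TPM). In H4 they were HIST1H4B (4.0 and 5.12 TPM, then 5.22 and 11.3 TPM) and HIST1H4C (5.02 and 5.82 TPM, then 6.48 and 28.4 TPM). In all 8 the lower sgKAT6A library was replicate 1. HIST4H4, the single HIST4 gene, had 2.33 and 5.68 TPM in EV, and 5.59 and 16.2 TPM in sgKAT6A, with groups that overlapped. The median log2 difference was 0.24 over the 41 HIST1 members tested and 0.35 over the 9 of HIST2.

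Just outside the filter on level were HIST1H2AB, HIST1H4D and HIST3H2BB. HIST1H2AB had a listed value of 0 in each EV library, with 1.23 and 2.13 TPM in sgKAT6A, and was not tested. HIST1H4D had 0.921 and 0.430 TPM in EV, with 0 and 1.04 TPM in sgKAT6A. HIST3H2BB was at 0 and 0.507 TPM against 0 and 1.20 TPM. HIST1H2AK, just inside the filter, had 1.76 and 1.46 TPM in EV, with 0.266 and 2.60 TPM in sgKAT6A. The 4 members known from testis (HIST1H1T, HIST1H2AA, HIST1H2BA and HIST3H3) did not reach the filter.

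Many H2A and H2B genes sit head to head and share the interval between their starts. In RefSeq, 13 such pairs had start sites 193 to 287 bases apart (median 239), and 11 had both genes tested. Both genes had a higher mean in sgKAT6A in 6 pairs, the genes went in opposite directions in 5, and in none were both lower. HIST1H2AC and HIST1H2BC, which share the printed interval, differed by 1.00 and by -0.28 on the log2 scale. HIST2H2AA4 and HIST2H2BC differed by 0.77 and by -0.30. Levels within pairs were close in some and far apart in others. The ratio of the larger to the smaller mean TPM was 1.25 for HIST1H2AE with HIST1H2BG, the smallest of the 11 pairs. The largest was 19.2, for HIST1H2BK over HIST1H2AH, and the next was 7.88, for HIST2H2AC over HIST2H2BE. The differences within pairs were not tested against each other. Of the tested H2A and H2B genes, the 20 with the octamer in the promoter window had a median difference of 0.23 and the 7 with a window lacking it 0.17.

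**Figure D5:**
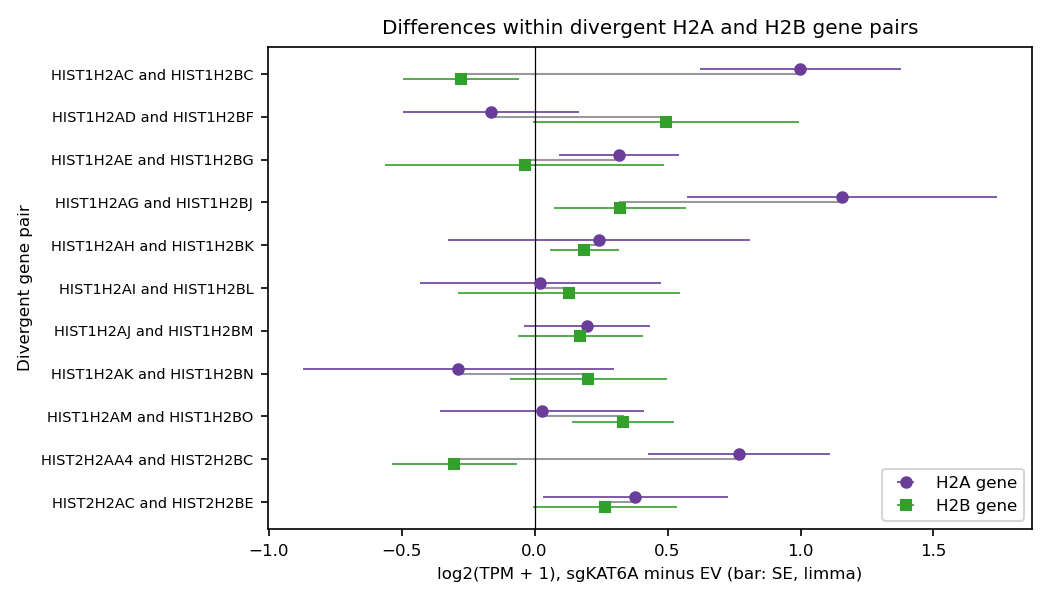
Difference in log2(TPM + 1), sgKAT6A minus EV, with its SE by limma, for the H2A gene (circle) and the H2B gene (square) of the 11 divergent pairs with both genes tested. In 6 pairs both points lie to the right of 0, and HIST1H2AC with HIST1H2BC lie farthest apart.

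The replication-independent histone variants, whose mRNAs mostly carry a poly(A) tail, gave a median difference of 0.00 over the 10 tested of 12. H2AFZ, the H2A variant at promoters, had 595 and 599 TPM in EV, with 511 and 457 TPM in sgKAT6A, without overlap (log2 difference -0.31 ± 0.11, adjusted p = 0.784 by limma). CENPA, the H3 variant of centromeres, was at 22.8 and 25.3 TPM against 21.4 and 20.9 TPM. Of the 10, 1 was higher and 2 were lower without overlap, where 14.4% and 23.2% of all genes tested were. The higher one was H2AFV, at 144 and 143 TPM against 146 and 148 TPM. The H2A variant H2AFX, marked by phosphorylation at DNA breaks, had 144 and 146 TPM in EV, with 138 and 152 TPM in sgKAT6A.

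H3F3A and H3F3B, which both encode H3.3, were at 56.4 and 51.6 TPM against 53.5 and 48.3 TPM and at 204 and 217 TPM against 193 and 216 TPM. The macroH2A gene H2AFY was at 325 and 411 TPM against 372 and 464 TPM. H2AFJ was at 11.4 and 16.6 TPM against 11.3 and 17.1 TPM. The linker variants differed within groups as HIST1H1C did, since H1F0 had 6.69 and 19.4 TPM in EV, with 6.68 and 30.2 TPM in sgKAT6A. H1FX was at 38.3 and 64.2 TPM against 35.6 and 98.7 TPM. Both were thus higher in the replicates numbered 2 of each group.

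The genes that transcribe and process histone mRNAs had lower values in sgKAT6A in 23 of 24, 15 of them without overlap, with a median of -0.23 (-0.12 without sgKAT6A replicate 2). None passed (limma, adjusted p = 0.784 or above), and 23.2% of all genes tested were lower without overlap. CCNA2, encoding cyclin A2 of S phase, had 62.3 and 57.4 TPM in EV, with 50.3 and 47.5 TPM in sgKAT6A. CDK2, the kinase that activates NPAT, was at 28.1 and 29.1 TPM against 24.5 and 23.5 TPM. The Sm proteins SNRPB and SNRPG, of spliceosomal and U7 particles, were also among the 4 with the smallest p. SLBP, the stem-loop binding protein, named here after its values were seen, was at 58.8 and 55.3 TPM against 51.1 and 40.4 TPM. NPAT, named likewise, was at 4.01 and 5.22 TPM against 4.61 and 5.0 TPM.

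The decay factors of histone mRNA were higher without overlap in 3 of 16 and lower in 7, where 14.4% and 23.2% of all genes were, with a median of -0.13 (-0.026 without sgKAT6A replicate 2, -0.23 without sgKAT6A replicate 1). LSM3, LSM4 and LSM5, of the LSM1-7 ring that binds the uridylated end, were lower without overlap, as was EXOSC10 of the exosome. The 3 higher were ZCCHC6 and ZCCHC11, the enzymes that add uridines, and XRN1, the exonuclease that degrades from the other end. They are named after their values were seen. XRN1 had 4.16 and 4.98 TPM in EV, with 5.68 and 5.22 TPM in sgKAT6A.

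The chaperones that carry and deposit histones were lower without overlap in 15 of 24 and higher in 1, where 23.2% and 14.4% of all genes were, with a median of -0.20. HAT1, which acetylates new H4, had 71.5 and 72.1 TPM in EV, with 57.5 and 52.1 TPM in sgKAT6A (log2 difference -0.39 ± 0.12, adjusted p = 0.784 by limma). NASP, the chaperone of the H3-H4 reserve, was at 111 and 105 TPM against 87.6 and 75.2 TPM. CHAF1B, a subunit of CAF-1 that places H3-H4 behind the fork, was at 13.1 and 12 TPM against 9.72 and 7.56 TPM. SSRP1, a subunit of FACT, was at 154 and 150 TPM against 126 and 98.4 TPM.

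The genes of S phase and DNA replication had lower means in all 34 tested, 29 of them without overlap against 23.2% of all genes, with a median of -0.31. CDC45, part of the replicative helicase, had 38.0 and 39.9 TPM in EV, with 28.4 and 27.2 TPM in sgKAT6A. FEN1, which trims Okazaki fragments, was at 64.9 and 62.3 TPM against 48.6 and 41.5 TPM. MCM2, a helicase subunit, was at 93.3 and 89.3 TPM against 71.9 and 60.5 TPM, and PRIM1, the primase, at 27.3 and 31.7 TPM against 22.1 and 21.2 TPM. None passed the threshold, and the difference between this list and the histone genes was not tested. Side by side, the median was -0.31 for these S phase genes and 0.26 for the histone members. Without sgKAT6A replicate 2 the members' median was 0.06. Between the libraries numbered 1, which the labels do not pair, the medians were -0.25 for the S phase genes and 0.05 for the members. Between those numbered 2 they were -0.37 and 0.56.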

How the data were processed

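The authors deposited one TPM table by gene symbol. Salmon and the hg38 build are named for it, per the submitters' processing notes. Not given in the sources used here are the annotation, the Salmon version, the strand setting and the kind of RNA selected. The TPM of each library summed to 1000000, and read depth is unknown. Libraries were grouped by their titles, with 2 EV and 2 sgKAT6A. Values were used as log2(TPM + 1) for symbols with a mean of at least 1 TPM (12603), and fitted with limma 3.58.1 in R 4.3.3 (linear model, trended empirical Bayes, two-sided, Benjamini-Hochberg over all symbols tested, threshold 0.05). Residual degrees of freedom were 2 and prior degrees of freedom 1.98. Log2 differences on this scale understate changes of low genes. Sums by class were compared with exact permutation tests over libraries (scipy 1.17.1). On data simulated for sgKAT6A against EV with the real spread (12603 genes), 19.4% of 4-fold and 0% of 2-fold changes passed.

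The members and gene lists were chosen with earlier results of these data known. By rule the text names KAT6A, the 3 members of highest mean per class, up to 4 members per direction with the smallest p among those without overlap, the 3 members on each side of the filter, all tested polyadenylated members and variants, and up to 4 genes per other list. Alternatives changed the pseudocount, filter, scaling, gene classes, variance trend and libraries used. Sequences, spans and start sites came from RefSeq (GRCh38.p14), and transcripts and coding sequences from GENCODE 29, matched by symbol. Coding sequences were found for 68 members, of which 7 were at least 98% identical to another gene.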

Additional observations from a re-analysis of the deposited data

How the results depend on the processing

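No member was called under any alternative run, so calls could not be lost. The numbers of the replicates do not pair the libraries by the labels. Deviations of same-numbered libraries correlated at 0.455 over all genes (2 pairs), and with a replicate block 15 genes were called, none of them a member. Other than when libraries were left out, lists and sums moved in 3 cases. Counts were judged by a set ratio to the reported count, and medians by the spread between replicates. Members lower without overlap were 4 with no filter and 1 at a mean of at least 5 TPM (2 as reported), where shares over all genes are not given. The decay median was -0.068 among rescaled protein-coding genes (-0.13 as reported). The H1 median moved within its wide spread (0.26 as reported, 0.14 with a pseudocount of 5, 0.11 at a mean of at least 5 TPM, -0.071 with no filter). A pseudocount of 5 left 2 members with an unadjusted p under 0.05 (5 as reported). Near 0, the sign turned for H2AFX (0.068 by quantile normalization, 0.057 among rescaled protein-coding genes, 0.027 with other RNAs without a tail removed), H3F3B (0.035 and 0.020 by the first 2 of these) and HIST1H1C (0.028 by the second, 0.000172 by the third). The alternatives with other RNAs removed or polyadenylated members left out were chosen after seeing the data.

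Leaving out each library in turn gave 18 to 36 members higher and 4 to 17 lower without overlap. The 36 were without sgKAT6A replicate 1, where 36.7% of all genes were higher. The 17 were without sgKAT6A replicate 2, where 33.1% of all genes were lower. Shares over all genes are not given for the 18 and the 4, so those counts are descriptions only. Class medians ranged from -0.033 to 0.55 (H2A), 0.088 to 1.03 (H3) and 0.19 to 1.26 (H4), the processing list from -0.32 to -0.12 and decay from -0.23 to -0.026. Log2 ratios of sums ranged from -0.027 to 0.77 (all), 0.16 to 1.00 (H2A), -0.051 to 0.94 (H3) and -0.27 to 0.93 (H4). Signs turned for 24 of the 52 members tested. Among the genes named by rule they turned for 15, whose differences ranged from -0.70 to 1.32 (H1F0), -0.47 to 0.98 (H1FX), -0.27 to 0.29 (H2AFJ), -0.073 to 0.063 (H2AFX), -0.12 to 0.042 (H3F3B), -0.59 to 0.53 (HIST1H1C), -0.22 to 0.74 (HIST1H1E), -1.04 to 0.47 (HIST1H2AK), -0.012 to 0.77 (HIST2H2AC), -0.31 to 1.21 (HIST1H2BD), -0.59 to 0.90 (HIST1H2BE), -0.64 to 0.071 (HIST1H3F), -0.66 to 1.21 (HIST1H3H), -0.21 to 0.043 (HIST2H3A) and -0.96 to 0.50 (HIST1H4K). With 1 library in a group, that library was assumed to vary like the others. The cause of these shifts was not tested.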
